A study of Mus musculus with 4 samples.

Results

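The genes described here are 37 genes of cholesterol and fatty acid metabolism, out of 53715 genes in the count table. They were chosen by name: 16 enzymes of sterol synthesis, 5 genes of the sterol-sensing SREBP pathway, 9 genes of fatty acid synthesis and 7 of mitochondrial beta-oxidation. Row identifiers were matched to gene symbols in GENCODE release M21, and all 37 had a row. The libraries came from whole mouse embryos at the 2-cell stage, of a C57BL/DBA2 background, injected as zygotes with 20 μM of an siRNA and cultured in KSOM medium. Control embryos received the siRNA labelled siNC. Knockdown embryos received an siRNA against SPENH0335, which the title of the study places among RNAs transcribed from enhancers. Each group had 2 libraries of poly(A) RNA, and the sources used here do not say how many embryos a library holds. The comparison asks whether embryos injected against SPENH0335 differ from controls in these transcripts. SPENH0335 was not matched to a gene of the table, so the extent of its knockdown was not analysed here. In whole embryos, fewer cells of a type and less RNA per cell cannot be told apart.

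Libraries held between 78865491 and 99011109 counts, and every member had at least 43 counts in every library. Levels are given as CPM, the count of a gene relative to the size of its library, scaled with edgeR's TMM factors. Fold changes are knockdown over control. The labelled stage was checked against marker genes. The 9 markers of the 2-cell stage with a row, such as Zscan4d and Zfp352, summed to 1122 and 1174 CPM in the control libraries and 1310 and 1299 CPM in the knockdown libraries, so the knockdown sums were the higher. Of these 9 markers, 4 lay apart between groups higher in knockdown and 2 lower. Over all genes tested, 15.6% lay apart higher and 17.1% lower. Zscan4c, Zscan4d and Zscan4f were at an unadjusted p under 0.05 (edgeR, adjusted p 0.9999), all higher, and 4 of the 9 fold changes lay below 0. The 12 oocyte markers, such as Gdf9 and Bmp15, summed to 6667 and 6678 CPM in control and 6079 and 6307 CPM in knockdown. The knockdown sums were the lower. Of the 12, 7 lay apart lower and 0 higher, and Gdf9 had a log2 fold change of -0.40 (edgeR unadjusted p 0.00891, adjusted p 0.9999). Markers of cumulus and granulosa cells summed to between 51.2 and 68.3 CPM over 15 genes, of which Cyp19a1 made up 36.8 to 55.7 CPM, with Inha at 0 in all libraries. Of the 12 tested, 2 lay apart lower in knockdown and 1 higher, where 17.1% of all genes lay apart lower and 15.6% higher. Has2 was at 2.65 and 2.58 CPM in control and 0.932 and 0.458 CPM in knockdown (log2 fold change -1.91, edgeR unadjusted p 0.0173, adjusted p 0.9999), and Foxl2 at 0.891 and 1.10 CPM in control and 0.228 and 0.0213 CPM in knockdown. Sperm markers summed to between 11.8 and 20.0 CPM over 10 genes, with Smcp at 0; of the 8 tested, 4 lay apart lower in knockdown and 2 higher. The 11 markers of blood, oviduct and stroma summed to 111 and 118 CPM in control and 114 and 91.0 CPM in knockdown, with Hbb-bs and Col3a1 at 0. Of the 9 tested, 4 lay apart lower in knockdown and 1 higher, and Krt7 was at 2.04 and 1.17 CPM in control and 0.197 and 0.586 CPM in knockdown (log2 fold change -2.03, edgeR unadjusted p 0.0478, adjusted p 0.9999). Has2, Foxl2 and Krt7 were lower in knockdown, but their lists were mixed. Of the 12 cumulus and granulosa markers tested, 7 had a fold change above 0 and 5 below. Of the 9 blood, oviduct and stroma markers tested, 4 were above 0 and 5 below. The part of stage and of these cells in the results below was not tested. No label says that the libraries were collected separately, so the p-values rest on a spread between libraries that may be technical.

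Cholesterol is built from acetyl-CoA by way of mevalonate, isoprenoid diphosphates and squalene, and the first sterol, lanosterol, is then trimmed to cholesterol in the endoplasmic reticulum. SREBP transcription factors activate most of these enzymes. They are held in the endoplasmic reticulum by Scap and the Insig proteins while sterol is plentiful. Fatty acids are made in the cytosol from the same acetyl-CoA, whereas beta-oxidation breaks them down in mitochondria, and the oocyte and early embryo draw on stored lipid and on this oxidation as a source of energy. Much of the RNA of a 2-cell embryo was made by the oocyte, so transcript levels at this stage mix inherited and newly made RNA.

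No member passed an adjusted p of 0.05 between knockdown and control, where 0% of the 25565 genes tested passed it (edgeR quasi-likelihood test, Benjamini-Hochberg adjustment). The smallest adjusted p was 0.9999 among the members and 0.595 among all genes. At an unadjusted p under 0.05 there were 2 members, Lss and Elovl1, both lower in knockdown. They are 5.41% of the 37, against 3.85% of all genes at that p in either direction and 2.29% lower. DESeq2, which called 0.208% of genes, and limma-voom called 0 members at an adjusted p under 0.05. At an unadjusted p under 0.05 they had 2 and 3 members, respectively. The shares of all genes at that unadjusted p were 4.01% with DESeq2 and 3.13% with limma-voom.

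Of the 37 fold changes, 26 lay below 0 and 11 above, with a median of -0.10 on the log2 scale, against a median of -0.0025 over all genes tested. The median without knockdown replicate 2 was -0.004. For 19 members the 95% interval of the fold change lay within 2-fold in either direction, which was 51.4% of them and 31.8% of all genes. Among the 21 members with a mean of at least 10 CPM it was 17, or 81.0%, against 87.8% of all genes at that level. For the remaining members a change of 2-fold in at least 1 direction was not excluded by the interval. The control and knockdown libraries did not overlap for 7 members lower in knockdown (18.9%, against 17.1% of all genes) and 3 higher, against 15.6% of all genes in that direction. Together they are 27% of the members, against 32.7% of all genes.

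**Figure D1:**
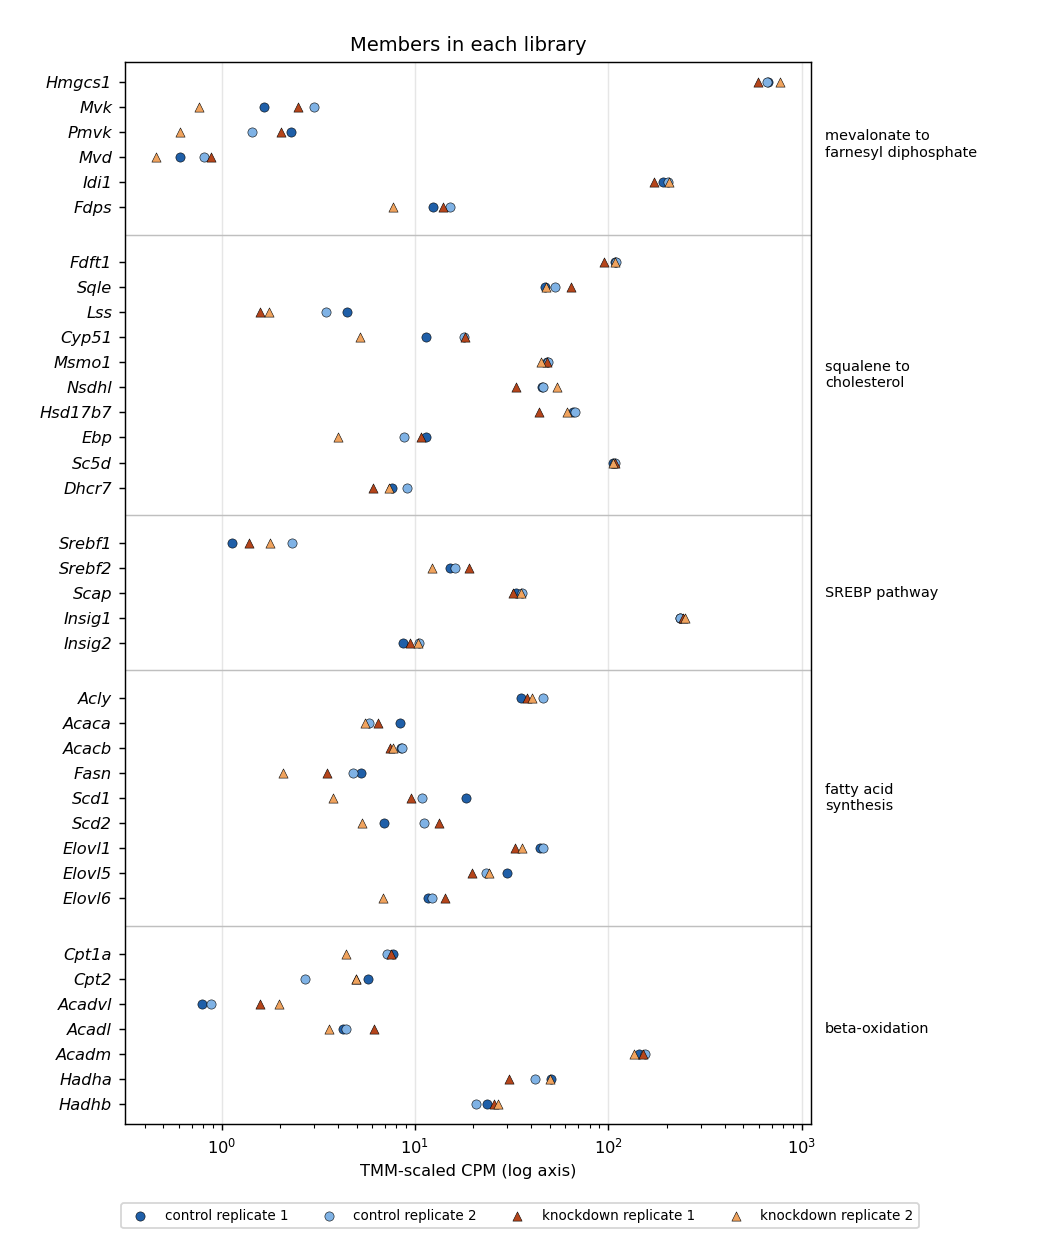
Level of each of the 37 genes in each of the 4 libraries, as TMM-scaled CPM on a log axis, grouped by role. Circles are control and triangles knockdown libraries; Hmgcs1 stands at the right, between 592 and 773 CPM, and Mvd at the left, between 0.458 and 0.881 CPM.

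**Figure D2:**
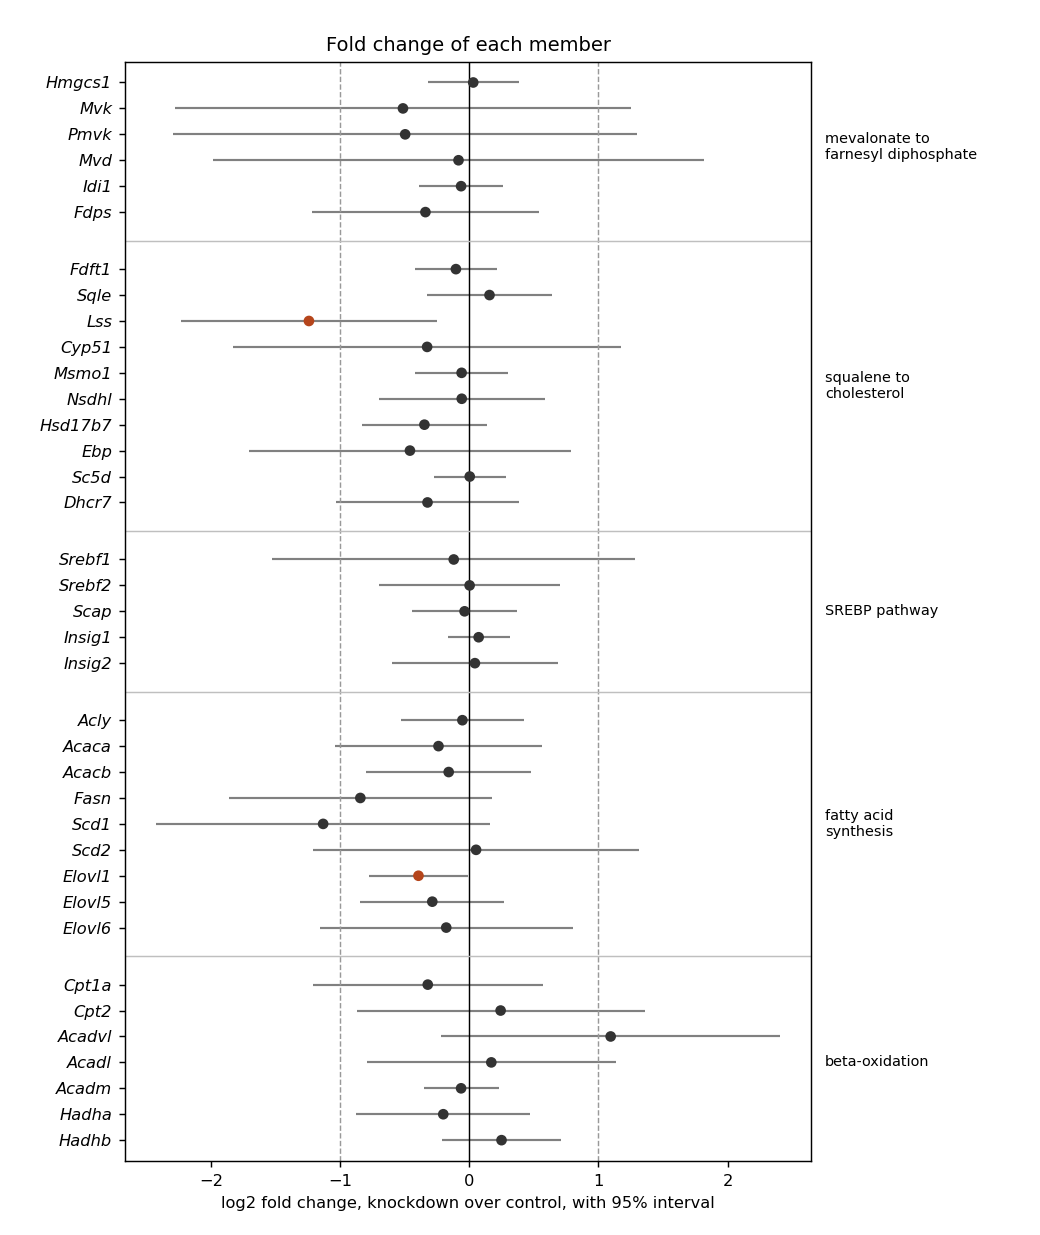
Log2 fold change of each gene, knockdown over control (points), with its 95% interval (bars), from the edgeR fit on 2 libraries a group. Dashed lines mark 2-fold in either direction, and the coloured points are Lss and Elovl1, whose unadjusted p was under 0.05 and whose adjusted p was 0.9999.

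The first steps of sterol synthesis held the most abundant member. Hmgcs1 on chromosome 13 (119690379 to 119708260, GRCm38) encodes the cytosolic HMG-CoA synthase that commits acetyl units to the pathway. It was at 672 and 664 CPM in the control libraries and 592 and 773 CPM in the knockdown libraries. Both control values lay between the knockdown values, and the log2 fold change was 0.03 (SE 0.14, edgeR adjusted p 0.9999). Idi1, the isopentenyl diphosphate isomerase, was at 192 and 204 CPM in control and 172 and 207 CPM in knockdown. The enzymes between them stood far lower. Mvk, mevalonate kinase, was at 1.66 and 2.99 CPM in control and 2.49 and 0.767 CPM in knockdown. Pmvk, phosphomevalonate kinase, was at 2.29 and 1.43 CPM in control and 2.03 and 0.607 CPM in knockdown. Mvd, the mevalonate diphosphate decarboxylase, was at 0.609 and 0.809 CPM in control and 0.881 and 0.458 CPM in knockdown. In each of these 3 genes the lowest value was that of knockdown replicate 2, and the groups overlapped. The log2 fold changes were -0.51 (SE 0.71) for Mvk and -0.50 (SE 0.72) for Pmvk, with unadjusted p of 0.496 and 0.518 by edgeR. Fdps, farnesyl diphosphate synthase, also had its lowest value in knockdown replicate 2, at 12.3 and 15.1 CPM in control and 14.04 and 7.66 CPM in knockdown, with a log2 fold change of -0.34 (SE 0.35, edgeR unadjusted p 0.377). Fdps shares 1124 exonic bases with Gm43738, a gene model on the same strand, so its count depends on how shared reads were assigned.

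Of the 10 genes from squalene to cholesterol, 8 had a fold change below 0 and 2 above. Lss, the lanosterol synthase that closes the epoxide of squalene into the first sterol, lies on chromosome 10 (76531588 to 76557138). It was at 4.43 and 3.47 CPM in control and 1.58 and 1.77 CPM in knockdown. Both knockdown libraries were below both controls, with means of 3.95 ± 0.678 and 1.67 ± 0.136 CPM (SD, n = 2). The log2 fold change was -1.24 (SE 0.40, 95% interval -2.23 to -0.25), with an unadjusted p of 0.0225 and an adjusted p of 0.9999 by edgeR. Without any 1 library its log2 fold change ran from -1.41 to -1.06. Hsd17b7, a sterol ketoreductase, was at 66.0 and 67.3 CPM in control and 43.8 and 61.0 CPM in knockdown. Dhcr7, the reductase of the last step, was at 7.63 and 9.14 CPM in control and 6.05 and 7.36 CPM in knockdown. In both genes the knockdown libraries lay below the controls, by less than the gap between the knockdown libraries. The log2 fold changes were -0.35 (SE 0.19, 95% interval -0.83 to 0.14) for Hsd17b7 and -0.32 (SE 0.28, 95% interval -1.03 to 0.39) for Dhcr7. The unadjusted p was 0.127 for Hsd17b7 and 0.303 for Dhcr7, and the adjusted p 0.9999 for both (edgeR).

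The other genes of this stretch overlapped between groups. Sc5d, the sterol desaturase, was the steadiest, at 106 and 108 CPM in control and 108 and 106 CPM in knockdown, and its 95% interval ran from -0.28 to 0.28 on the log2 scale. Fdft1, squalene synthase, was at 108 and 110 CPM in control and 94.9 and 108 CPM in knockdown. It shares 774 exonic bases with Ctsb on the opposite strand, and no source used here states the strand setting of the counting. Msmo1, a sterol methyl oxidase, ranged from 45.1 to 49.0 CPM over the 4 libraries. Sqle, squalene epoxidase, a rate-limiting step, was at 47.2 and 52.9 CPM in control and 64.0 and 47.6 CPM in knockdown. Nsdhl, a sterol dehydrogenase, was at 45.3 and 45.7 CPM in control and 33.2 and 54.3 CPM in knockdown. As for Hmgcs1, its knockdown libraries stood on either side of a tight control pair. Cyp51, the lanosterol demethylase, was at 11.4 and 17.9 CPM in control and 18.2 and 5.21 CPM in knockdown. Ebp, a sterol isomerase, was at 11.4 and 8.81 CPM in control and 10.7 and 4.01 CPM in knockdown. Cyp51 shares 166 exonic bases with Akap9 on the opposite strand. Both Cyp51 and Ebp had knockdown replicate 2 as the lowest library, with knockdown replicate 1 inside or above the control range.

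The sterol enzymes shared a promoter feature that the choice of genes did not use. RefSeq windows (GRCm38.p6) of the 250 bases before a start site were found for 32 of the 37 members; Fdps, Fdft1, Sqle, Scd1 and Scd2 had none. The box bound by NF-Y was searched as CCAAT on both strands. The GC box bound by Sp1 was searched as GGGCGG and a form of the sterol regulatory element as TCACNCCAC, likewise on both strands. All 13 sterol synthesis genes with a window held a CCAAT box. Across all members with a window it was 22 of 32, or 68.8%, against 37.5% of the 27025 genes with a RefSeq window and 40.5% of the protein-coding genes tested. Genes with several start sites count as holding a motif when any of their windows does. Of the 7 beta-oxidation genes, only Cpt1a held the box. The 13 boxes nearest a start site are printed below with up to 10 bases on each side, on the strand of the gene and with the box in capitals; ATTGG is the same box read from the opposite strand.
Hmgcs1: cccgcctctcATTGGctgaaagcgg
Mvk: cagctctctgATTGGcctcaggaa
Pmvk: ctcaggttggCCAATtcacagcatc
Mvd: ggccagcgggCCAATcatatggcag
Idi1: ccaaggtgccATTGGctggcgacc
Lss: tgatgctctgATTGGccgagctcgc
Cyp51: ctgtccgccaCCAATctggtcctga
Msmo1: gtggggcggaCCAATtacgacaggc
Nsdhl: gactagcctcATTGGgcaaaatcat
Hsd17b7: ccgagccttgATTGGtcgaggt
Ebp: ccctgtactgATTGGttcgtcagat
Sc5d: ccggctgctgATTGGccggctgcct
Dhcr7: tccacttccgATTGGtcgtctgtga

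These genes span the whole range of sterol enzyme levels, from Hmgcs1 down to Mvd and Lss, so the box was found at abundant and at scarce members alike. It lay between 8 bases (Hsd17b7) and 132 bases (Pmvk) before the start site. The sterol regulatory element form was found in 1 member, Hmgcs1, and in 1.22% of the genes with a window. GC boxes were found in 24 of 32 members, or 75%, against 35.4% of the genes with a window and 56% of the protein-coding genes tested. A match describes letters only and does not show binding. The 250 bases before the RefSeq start of Hmgcs1, at chr13:119690101-119690350 on the plus strand, are shown because this promoter held all 3 motifs, in capitals.
Hmgcs1: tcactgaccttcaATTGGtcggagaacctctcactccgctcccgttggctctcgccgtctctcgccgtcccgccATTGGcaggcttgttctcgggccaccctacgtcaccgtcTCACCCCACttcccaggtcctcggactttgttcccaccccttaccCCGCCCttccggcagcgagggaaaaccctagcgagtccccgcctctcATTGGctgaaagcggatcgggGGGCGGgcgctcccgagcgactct

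The 5 genes of the SREBP pathway had log2 fold changes between -0.12 and 0.07. The 95% interval lay within 2-fold for 4 of them, and that of Srebf1 ran from -1.53 to 1.29. Insig1, which anchors the SREBP and Scap complex and is itself an SREBP target, lies on chromosome 5 (28071363 to 28078662). It was at 234 and 235 CPM in control and 244 and 249 CPM in knockdown. The knockdown libraries lay above the controls, with a log2 fold change of 0.07 (SE 0.10, edgeR unadjusted p 0.481, adjusted p 0.9999) and a 95% interval from -0.17 to 0.31. Insig2, its paralog, was at 8.65 and 10.5 CPM in control and 9.38 and 10.4 CPM in knockdown. Scap, the escort and sterol sensor, was at 33.4 and 35.7 CPM in control and 32.3 and 35.2 CPM in knockdown. Both overlapped between groups. Srebf2, which encodes the SREBP of cholesterol synthesis, was at 15.2 and 16.05 CPM in control and 19.1 and 12.2 CPM in knockdown. Srebf1, which encodes the SREBP of fatty acid synthesis, was at 1.13 and 2.30 CPM in control and 1.38 and 1.78 CPM in knockdown. The control pair of Srebf1 was wider than the knockdown pair and enclosed it. The log2 fold changes were -0.04 (SE 0.16) for Scap and -0.12 (SE 0.56) for Srebf1, with unadjusted p of 0.832 and 0.839 by edgeR. Per kb of exon, Insig1 made up between 96.2 and 96.8% of the Insig transcripts in the 4 libraries, and Srebf2 between 84.4 and 91.6% of the Srebf transcripts.

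Fatty acid synthesis had 8 of its 9 members below 0 and a median log2 fold change of -0.24. The 9 levels summed to 168 and 169 CPM in control and 145 and 131 CPM in knockdown, so the sums did not overlap. In 4 of the 9 the libraries lay apart, all lower in knockdown, where 17.1% of all genes lay apart in that direction and 15.6% in the other. Elovl1, an elongase of saturated very long chains, lies on chromosome 4 (118428093 to 118432953). It was at 44.1 and 45.8 CPM in control and 32.8 and 35.7 CPM in knockdown. The gap between the groups was wider than the gap within either, with means of 44.9 ± 1.17 and 34.2 ± 2.06 CPM (SD, n = 2). The log2 fold change was -0.39 (SE 0.15, 95% interval -0.78 to -0.006), with an unadjusted p of 0.0474 and an adjusted p of 0.9999 by edgeR. With DESeq2's size factors the unadjusted p was 0.0545. Elovl1 shares 53 exonic bases with Cdc20 on the opposite strand, which was at 98.6 and 98.7 CPM in control and 76.9 and 115 CPM in knockdown.

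Scd1, the delta-9 desaturase that makes oleate, was at 18.3 and 10.9 CPM in control and 9.57 and 3.77 CPM in knockdown. All 4 values were spread, and the lower control stood close to the higher knockdown library. Its log2 fold change was -1.13 (SE 0.52, edgeR unadjusted p 0.0756, adjusted p 0.9999), and it was -0.60 without knockdown replicate 2 and -1.95 without knockdown replicate 1. Fasn, the multienzyme that makes palmitate, was at 5.24 and 4.78 CPM in control and 3.52 and 2.07 CPM in knockdown. Its log2 fold change was -0.84 (SE 0.41, edgeR unadjusted p 0.0877, adjusted p 0.9999), and without knockdown replicate 2 it was -0.50. Acacb, the acetyl-CoA carboxylase of the mitochondrial surface, was at 8.42 and 8.57 CPM in control and 7.47 and 7.74 CPM in knockdown. It was the tightest of the 4, and its 95% interval ran from -0.80 to 0.48.

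The remaining members of fatty acid synthesis overlapped between groups. Acly, which makes cytosolic acetyl-CoA from citrate, was at 35.3 and 46.1 CPM in control and 38.1 and 40.4 CPM in knockdown. Acaca, the cytosolic acetyl-CoA carboxylase, was at 8.32 and 5.79 CPM in control and 6.44 and 5.53 CPM in knockdown. Elovl5, an elongase of polyunsaturated chains, was at 29.9 and 23.4 CPM in control and 19.7 and 24.1 CPM in knockdown. In these 3 genes at least 1 knockdown library lay inside the control range. Scd2 was at 6.89 and 11.1 CPM in control and 13.4 and 5.35 CPM in knockdown, and Elovl6, which extends palmitate to stearate, was at 11.6 and 12.3 CPM in control and 14.3 and 6.81 CPM in knockdown. In both, the knockdown libraries enclosed the control pair. Scd1 made up 74.8 and 52.1% of the Scd1 and Scd2 transcripts per kb in control and 44.4 and 44.1% in knockdown. The Scd genes are close copies in a cluster on chromosome 19, so reads shared between them make single values uncertain. The 250 bases before the first start of Elovl1 (chr4:118427843-118428092, plus strand) and the 233 bases before the annotated exons of Lss (chr10:76531355-76531587, plus strand) are shown because these were the 2 members with an unadjusted p under 0.05. Capitals mark CCAAT and GC boxes; in Elovl1 a GC box runs into the CCAAT box.
Elovl1: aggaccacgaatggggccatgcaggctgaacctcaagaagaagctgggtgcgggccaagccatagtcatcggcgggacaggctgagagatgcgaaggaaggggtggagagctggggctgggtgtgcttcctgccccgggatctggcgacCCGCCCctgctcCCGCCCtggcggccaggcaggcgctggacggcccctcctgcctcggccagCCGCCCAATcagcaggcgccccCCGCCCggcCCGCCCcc
Lss: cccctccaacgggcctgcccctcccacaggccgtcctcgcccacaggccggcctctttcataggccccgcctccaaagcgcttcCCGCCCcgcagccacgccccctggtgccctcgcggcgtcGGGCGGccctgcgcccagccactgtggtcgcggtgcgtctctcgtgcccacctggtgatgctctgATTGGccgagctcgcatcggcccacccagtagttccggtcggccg

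Beta-oxidation had 4 of 7 members above 0 and a median log2 fold change of 0.17. The levels summed to 238 and 232 CPM in control and 227 and 228 CPM in knockdown, most of it from Acadm. Acadm, the dehydrogenase of medium-chain fatty acids, lies on chromosome 3 (153922357 to 153944632). It was at 145 and 154 CPM in control and 150 and 136 CPM in knockdown, with a log2 fold change of -0.06 and a 95% interval from -0.35 to 0.23. Acadvl, the dehydrogenase of very long chains, was at 0.789 and 0.884 CPM in control and 1.58 and 1.99 CPM in knockdown. Its knockdown libraries lay above both controls, with a log2 fold change of 1.09 (SE 0.53, edgeR unadjusted p 0.0860, adjusted p 0.9999) and an interval from -0.22 to 2.41. It shares 1151 of its exonic bases with Dvl2 on the opposite strand, which was at 4.44 and 4.41 CPM in control and 3.78 and 2.95 CPM in knockdown. Acadl, the long-chain dehydrogenase, was at 4.25 and 4.38 CPM in control and 6.11 and 3.61 CPM in knockdown. Cpt1a, the carnitine acyltransferase that controls entry into mitochondria, was at 7.70 and 7.16 CPM in control and 7.5 and 4.40 CPM in knockdown. Cpt2, its partner on the inner membrane, was at 5.70 and 2.71 CPM in control and 4.97 and 4.98 CPM in knockdown. These 3 genes overlapped between groups, and the log2 fold change of Cpt1a was -0.32 (SE 0.36, edgeR unadjusted p 0.405).

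Hadha and Hadhb encode the α and β subunits of the mitochondrial trifunctional protein and lie head to head on chromosome 5. Hadha was at 50.8 and 41.8 CPM in control and 30.6 and 49.9 CPM in knockdown. Hadhb was at 23.6 and 20.7 CPM in control and 25.8 and 26.9 CPM in knockdown. The knockdown libraries of Hadhb lay above its controls, with a log2 fold change of 0.25 (SE 0.19, edgeR unadjusted p 0.231, adjusted p 0.9999), while those of Hadha overlapped its controls, with a fold change of -0.20 (SE 0.27); the difference between the genes was not tested. Their RefSeq start sites are 273 bases apart. The 85 bases between their annotated exons (chr5:30155163-30155247, plus strand, the direction of Hadhb) are shown as the sequence both genes share upstream, with GC boxes in capitals.
Hadha-Hadhb: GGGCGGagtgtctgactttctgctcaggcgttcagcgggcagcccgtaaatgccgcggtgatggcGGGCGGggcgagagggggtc

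Levels of different genes were compared per kb of annotated exon, as the mean of the 4 libraries. Hmgcs1 was first, at 147 ± 16.2 CPM per kb (SD, n = 4), followed by Insig1 at 77.8 ± 2.38, Idi1 at 55.3 ± 4.44, Acadm at 37.4 ± 2.04, Fdft1 at 24.9 ± 1.65 and Sc5d at 22.03 ± 0.246 CPM per kb. The range of each of these 6 genes over the libraries lay apart from the next, and their order was the same in every library. Hmgcs1 was above 98.5% of the protein-coding genes tested on this scale. From Nsdhl, the seventh, at 15.6 ± 3.04 CPM per kb, all but 1 neighbour in the order overlapped; Sqle, the tenth, lay apart from Msmo1. The last places were held by Mvd at 0.371 ± 0.103, Fasn at 0.356 ± 0.130, Srebf1 at 0.292 ± 0.0911 and Lss at 0.261 ± 0.128 CPM per kb, and these overlapped. Within sterol synthesis the scarcest transcripts by mean thus were the 3 enzymes that turn mevalonate into isopentenyl diphosphate and the lanosterol synthase. Dhcr7, at 1.30 ± 0.218 CPM per kb, overlapped Pmvk. Within fatty acid synthesis the elongase Elovl1 was at 14.5 ± 2.32 CPM per kb, against 0.382 ± 0.0739 for Acaca and 0.356 ± 0.130 for Fasn. Within beta-oxidation the medium-chain enzyme Acadm stood above Acadl at 2.29 ± 0.534 and Acadvl at 0.489 ± 0.214 CPM per kb, in every library. Transcripts on this scale include any with retained introns that the annotation lists, and protein was not measured.

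**Figure D3:**
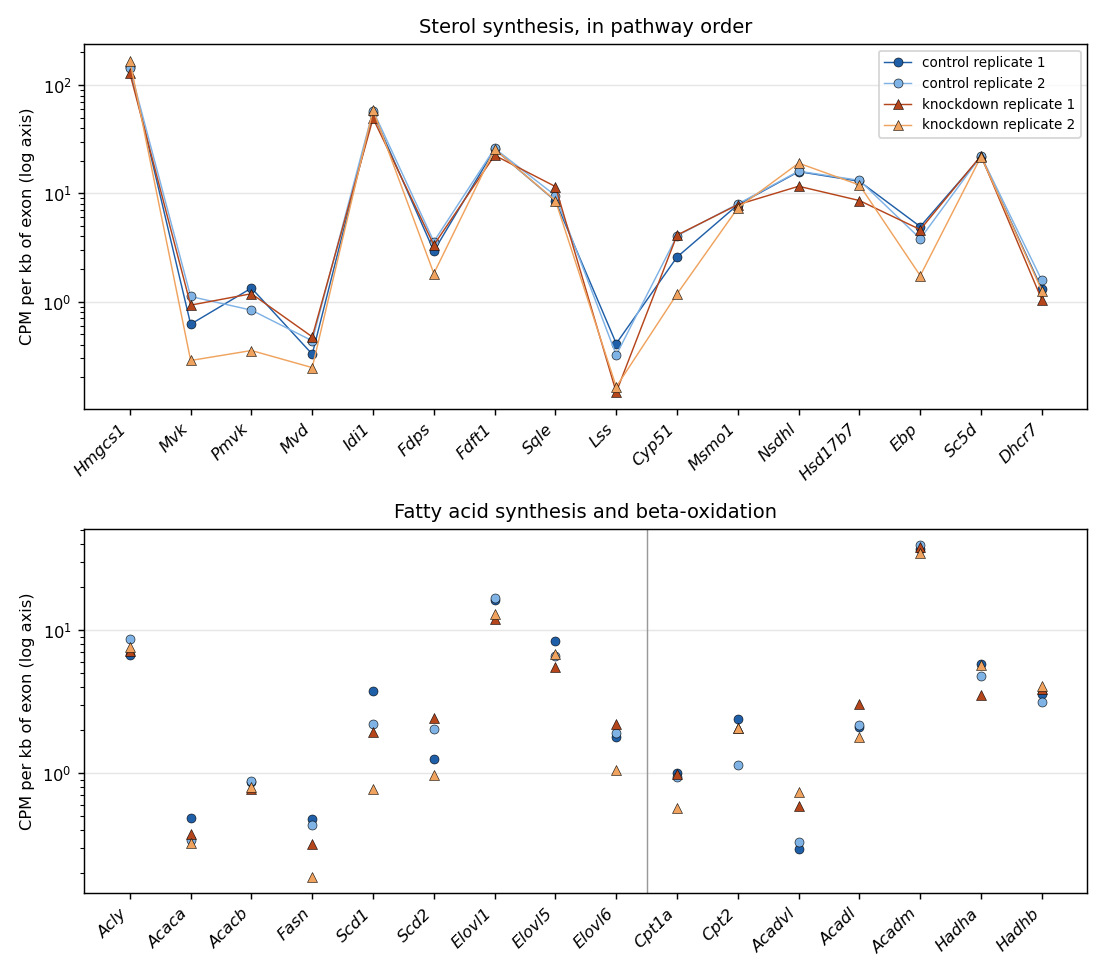
Level per kb of annotated exon (log axis) in each library, with the sterol enzymes in pathway order (top; lines join the genes of 1 library) and the fatty acid genes below, with synthesis to the left of the vertical line and beta-oxidation to its right. The 4 libraries trace a similar profile, with low points at Mvk, Pmvk, Mvd, Lss and Dhcr7 and high points at Hmgcs1, Idi1, Fdft1 and Sc5d. The order of Mvk and Pmvk and the level of Cyp51 differ between libraries.

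The knockdown replicates differed from each other more than the control replicates did. The median absolute log2 difference between replicates over the members, on log2(CPM + 1), was 0.28 in knockdown and 0.16 in control, against 0.29 and 0.20 over all genes tested. Knockdown replicate 2 was the lowest of the 4 libraries for 16 members, or 43.2%, against 29.8% of all genes tested. A total of 7 members were at least 2-fold lower in knockdown replicate 2 than in replicate 1, namely Mvk, Pmvk, Cyp51, Ebp, Scd1, Scd2 and Elovl6, and none was 2-fold higher. They are 18.9% of the members, against 15.8% of all genes tested. Leaving out a knockdown library also changed which members stood out, and the cause was not tested. Without knockdown replicate 1, 8 members had an unadjusted p under 0.05 (Hmgcs1 higher, and Cyp51, Ebp, Elovl6, Fasn, Fdps, Lss and Scd1 lower), at a share of 13.1% of all genes. Without knockdown replicate 2 there were 7 (Sqle higher, and Elovl1, Hadha, Hmgcs1, Hsd17b7, Lss and Nsdhl lower), at a share of 8.02% of all genes. Lss was in both sets with the same direction, and Hmgcs1 was in both with opposite directions. Without control replicate 1 or control replicate 2 there was no member at that p, with 1.89 and 2.00% of all genes. No member passed an adjusted p of 0.05 in any of these fits.

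**Figure D4:**
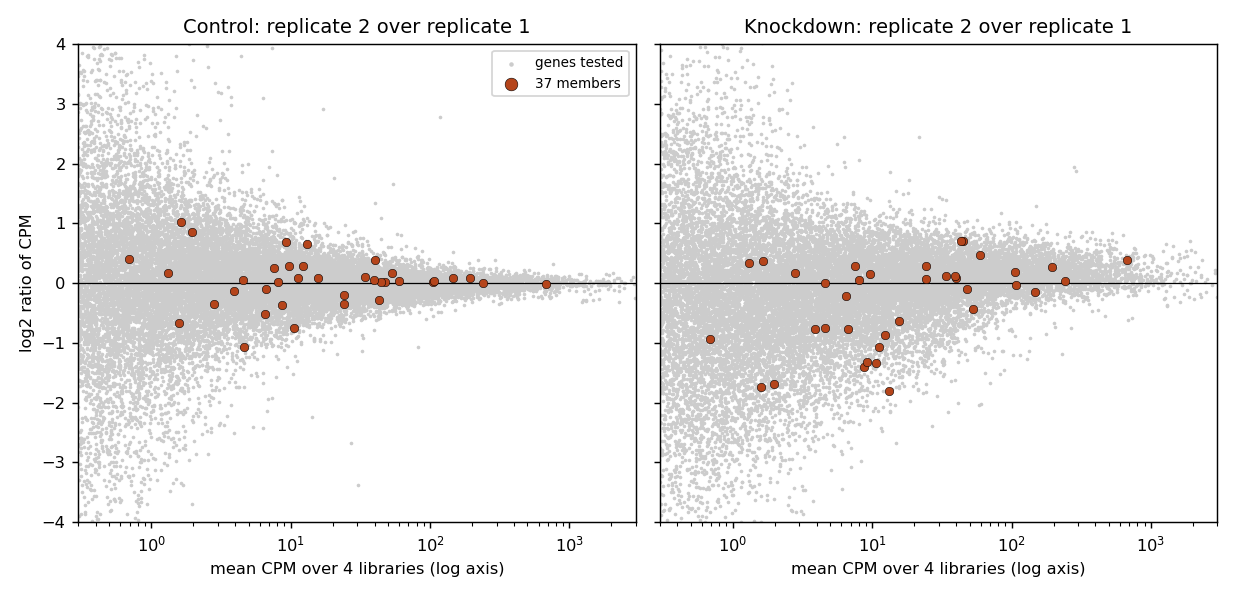
Log2 ratio of replicate 2 over replicate 1 against the mean CPM of the 4 libraries (log axis), for control (left) and knockdown (right); grey points are genes tested with counts in both libraries and coloured points the 37 members. Genes outside the axes are not drawn. In knockdown 7 members lie at or below -1 and 0 at or above 1; in control it is 1 and 1.

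The wider pathways were read from 9 further lists with 133 genes in the table, of which 128 were tested. None passed an adjusted p of 0.05, and 2 had an unadjusted p under 0.05, or 1.56% of them, against 3.85% of all genes. Fold changes were below 0 for 75 of the 128 and above 0 for 53, and their median was -0.09 (log2). Lbr, a sterol reductase that also binds lamin B, ranged from 46.4 to 66.0 CPM, with overlapping groups.

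The 2 genes at an unadjusted p under 0.05 were Etfdh, of the other mitochondrial beta-oxidation genes, and Cpt1c, of the list of fatty acid activation and the carnitine shuttle. Etfdh, which passes electrons from acyl-CoA dehydrogenases to ubiquinone, was at 7.41 and 10.3 CPM in control and 5.15 and 2.27 CPM in knockdown. Its log2 fold change was -1.26 (SE 0.47, edgeR unadjusted p 0.0415, adjusted p 0.9999). Cpt1c, a carnitine acyltransferase paralog, was at 1.43 and 2.43 CPM in control and 0.621 and 0.724 CPM in knockdown, with a log2 fold change of -1.52 (SE 0.57, edgeR unadjusted p 0.0416, adjusted p 0.9999). Both were lower in each knockdown library than in each control. The list of other mitochondrial beta-oxidation genes had 11 of 15 below 0 and a median of -0.42, where the 7 members of the same pathway had a median of 0.17. Acad11, an acyl-CoA dehydrogenase, was at 7.45 and 5.59 CPM in control and 3.26 and 4.34 CPM in knockdown. In the peroxisomal list 6 of 12 lay below 0; Crot, which makes carnitine esters there, was at 16.2 and 13.4 CPM in control and 11.04 and 9.02 CPM in knockdown, and Hsd17b4 ranged from 12.9 to 24.9 CPM.

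The remaining lists had medians between -0.20 and 0.08. In fatty acid activation and transport, Slc27a1 was at 3.38 and 3.20 CPM in control and 0.414 and 1.94 CPM in knockdown. In the list of other synthesis and elongation genes, Mecr of the mitochondrial pathway was at 14.6 and 11.1 CPM in control and 7.79 and 10.2 CPM in knockdown, and Mlxipl, which encodes the glucose-responsive factor ChREBP, was at 12.8 and 13.5 CPM in control and 16.4 and 16.6 CPM in knockdown. The groups of all 3 genes lay apart, and none passed the test. Among regulators, Stk11, the kinase upstream of AMPK, was at 27.2 and 27.8 CPM in control and 38.7 and 33.4 CPM in knockdown. Pparg, a nuclear receptor for fatty acids, was at 18.6 and 21.8 CPM in control and 16.2 and 16.2 CPM in knockdown. Faf2, a factor of endoplasmic reticulum degradation, was at 7.22 and 7.78 CPM in control and 5.68 and 3.78 CPM in knockdown. These too lay apart, each without passing the test. Nr1h3, the oxysterol receptor LXRα, was at 1.45 and 3.02 CPM in control and 1.41 and 0.841 CPM in knockdown. Among uptake and storage genes, Scarb1 was at 15.1 and 12.6 CPM in control and 10.9 and 11.1 CPM in knockdown, and Lipa, the lysosomal acid lipase, ranged from 1.47 to 4.32 CPM with overlapping groups. For lipid droplets, Dgat2, which makes triglyceride, was at 1.15 and 2.39 CPM in control and 1.04 and 0.415 CPM in knockdown. Mgll, which breaks down monoglyceride, was at 2.32 and 1.77 CPM in control and 1.47 and 0.820 CPM in knockdown. Nr1h3, Scarb1, Dgat2 and Mgll lay apart, lower in knockdown, and none passed the test. The genes named from the wider lists were picked for the smallest p. Over all 128 wider genes tested, 24 lay apart lower in knockdown and 12 higher. The shares over all genes tested were 17.1% lower and 15.6% higher.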

How the data were processed

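The authors deposited whole-number counts per gene, one column per library, whose values were not normalized. The submitters' processing notes name HISAT2 2.1.0, Picard 2.18.2, Trim Galore 0.6.5, CASAVA 1.8 and the build mm10, with no role. The sources used here give no counting tool, annotation, strand setting or handling of duplicates. Per the labels' protocols the cDNA was pre-amplified, so counts are not independent molecules.

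By identifier without version, 53620 rows matched GENCODE M21 and 95 did not. Genes passing filterByExpr (minimum 10 counts) were fitted with edgeR 4.0.16 in R 4.3.3, with TMM scaling, the quasi-likelihood F-test and Benjamini-Hochberg adjustment over all 25565 genes. The SE was taken from the log2 fold change and its F value. The 95% interval used that SE and the residual plus prior degrees of freedom of the quasi-likelihood fit. DESeq2 1.42.0, limma 3.58.1, other filters, a replicate block and fits without each library were alternatives. The fit was tested on simulated data. A set of 2 libraries against 2 cannot go below p = 0.333 in an exact permutation test, so none was used. Levels between genes are CPM per kb of the union of annotated exons. Promoter windows came from RefSeq (GRCm38.p6).

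The members and lists were chosen with earlier results of these data known. All 37 members are named, with log2 fold change, SE and p for those at an unadjusted p under 0.05 and for up to 3 of each role group with the smallest p. Each wider list gives its 2 genes with the smallest p, except that some genes under the naming rule are not reported here. The wider genes Faxdc2 and Hsd17b8 and the marker Dub1 were not matched by symbol.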

Additional observations from a re-analysis of the deposited data

How the results depend on the processing

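No member passed an adjusted p of 0.05 under any alternative run. Over all genes, DESeq2 called 53, and edgeR called 3 without knockdown replicate 1 and 2 without knockdown replicate 2, in a range of 0 to 3 without 1 library. In these fits the lone library of a group is assumed to vary like the other group. The cause of these moves was not tested. Members at an unadjusted p under 0.05 numbered 2 as reported, 1 with DESeq2's size factors (Lss), 1 at a mean of at least 10 CPM (Elovl1, since Lss is under that mean) and 0 to 8 without 1 library. Wider genes at that p numbered 2 as reported, 0 at a mean of at least 10 CPM, 1 with no filter, 1 with the replicate block and 0 to 20 without 1 library. Of the genes tested in each run, the shares at that p were 3.85% as reported and 3.83% with DESeq2's size factors. They were 3.29% at a mean of at least 10 CPM, 2.67% with no filter and 1.87% with the replicate block. Without 1 library these shares moved too, as given above. The fit without knockdown replicate 1, with the 8 members and 20 wider genes, also had the highest share of all genes. The members' median log2 fold change ran from -0.14 to -0.004 without 1 library. With the replicate number as a block, 2 members (Lss and Scd1) were at an unadjusted p under 0.05 and Elovl1 was at 0.11 by edgeR; libraries of the same number correlated at -0.019 in their deviations from the group means, so the numbers were not taken as pairs.

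Single fold changes were followed over these fits only for the members picked by unadjusted p, as described above. Among those, the direction turned without knockdown replicate 2 for Cpt1a, Fdps, Mvk and Pmvk. Without control replicate 2 or knockdown replicate 1 it turned for Scap and Srebf1. None of these genes was called in any fit. Other members may also have turned, as Hmgcs1 did between the fits without a knockdown library. Over the fits without 1 library, the log2 fold change ran from -0.755 to 0.019 for Cpt1a, -0.841 to 0.038 for Fdps, -1.60 to 0.10 for Mvk, -1.61 to 0.13 for Pmvk, -0.094 to 0.026 for Scap and -0.55 to 0.48 for Srebf1. With the length of the longest transcript, 12 members in place of 9 reached 10 CPM per kb. The same change moved the share of Acaca among the carboxylases from 31.2 to 42.6%, of Elovl1 among the 3 elongases from 62.6 to 67.2% and of Insig1 from 96.5 to 96.1%. Members under 10 CPM had wide intervals, and 2 of those 16 lay within 2-fold.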

Other observations

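The lower level of knockdown replicate 2 was also counted among members with a mean of 5 to 20 CPM, a range chosen after the values were seen. Of the 12 members with a mean of 5 to 20 CPM, knockdown replicate 2 was the lowest library for 9, or 75%, against 36.9% of the 4389 genes tested at that level. At least 2-fold lower than knockdown replicate 1 were 5 of the 12, or 41.7%, against 10.3% of the genes at that level. Those 5 are Cyp51 and Ebp of sterol synthesis and Scd1, Scd2 and Elovl6 of fatty acid synthesis. In the control pair 0 of the 12 differed 2-fold.

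The carboxylase transcripts were mostly of the isozyme known from oxidative tissues. Acacb made up between 64.2 and 72.4% of Acaca and Acacb per kb of exon in the 4 libraries. With the length of the longest transcript its share was between 52.3 and 61.6%.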
